A study of Mus musculus with 27 samples.

Results

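The genes described here are 49 genes of DNA replication and mitosis, 27 that act in or before S phase and 22 that act in G2 and M phase, out of 50559 genes in a table of 3′ RNA counts from mouse macrophages. They were selected on measured values: a named gene was kept when at least 3 libraries of batch 1 held 3 or more of its counts, and the names themselves were picked with results of these data known. The rule kept 48 of the 49, all 27 S-phase genes and 21 of the 22 G2/M genes. Counts and medians over the kept genes are therefore descriptions.

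The study asked how macrophages with and without TRAP1, a mitochondrial chaperone of the HSP90 family, respond to medium conditioned by cells of malignant peripheral nerve sheath tumours (MPNST). Bone marrow of female C57BL/6 mice aged 3 to 4 months, wild type (WT) or TRAP1 knockout (KO), was grown into macrophages, which were used unpolarized (M0) or after 24 h with 10 ng/mL of IL-4 (M2). Either kind then spent 48 h in control medium (DMEM) or in the tumour cells' conditioned medium (CM), and poly(A) RNA was sequenced from its 3′ ends. The 27 libraries fall into 8 groups of genotype, polarization and medium, and each group has 3 libraries of batch 1, the larger of the labels' 2 batches.

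WT M0 in DMEM, KO M2 in DMEM and KO M2 in CM each have 1 further library, of batch 2. By the labels all groups share the sex, the strain, the age range and the 48 h of exposure, and no group was kept outside the dish. A library is named below by genotype, polarization, medium and label number, as in WT M0 DMEM 1, and WT M2 DMEM is numbered 2 to 4. The labels do not say how the knockout was made, whether the libraries of a group come from separate mice, which tumour line conditioned the medium, or whether M0 cells also waited 24 h before exposure, so M2 against M0 compares the labelled cells as they were cultured. The replicates may therefore be technical.

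Cells that commit to division free E2F factors from the retinoblastoma protein, and E2F switches on genes for origin licensing, DNA synthesis, nucleotide supply and cyclin E. Genes for mitosis peak later, under MuvB complexes with B-MYB and FOXM1 that act on promoters with a cell cycle homology region (CHR) and CCAAT boxes, and in resting cells the DREAM complex holds both sets down. Macrophages grown from bone marrow divide in response to M-CSF, which the differentiation medium supplied through L929-conditioned medium, and they leave the cycle as they mature or are activated. The methods of the paper name M-CSF for the differentiation medium and do not mention it for the IL-4 step or the exposure.

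The libraries of batch 1 held 7037684 to 9089792 counts each and those of batch 2 9997776 to 11152362. Levels are in CPM, counts scaled to a common library total with TMM factors over all 27 libraries, and 3 values in a row are the batch 1 libraries of a group in the order of their label numbers. Libraries that share a number were weakly alike across groups on average. The mean correlation of residuals was 0.126 over 77 pairs that share a number and -0.0519 over 175 pairs that do not. Over the 21 pairs of number 1 it was 0.233, and single pairs ran from -0.277 to 0.586. Replicate 1 stood apart in the M0 groups and in WT M2 in CM, as described under Other observations. The fit leaves the numbers out, so its adjusted p treat the libraries of a group as independent. A fit with the numbers as a block is among the alternatives.

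Trap1 was read first, as a check of the genotype labels. In WT cells it was 13.4, 11.5 and 11.5 CPM in M0 in DMEM, 16.5, 11.2 and 13.7 in M0 in CM, 15.8, 16.4 and 18.8 in M2 in DMEM and 10.9, 11.02 and 11.1 in M2 in CM, and 20.5 CPM in the batch 2 library WT M0 DMEM 4. In KO cells it had no count in 13 of 14 libraries and 2 counts, 0.19 CPM, in the other. The genotype labels and Trap1 go together in every library, since 13 of 13 WT libraries had 83 to 252 counts.

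The profiles of 2 batch 2 libraries went against their labels. Each of the 24 batch 1 libraries had its highest rank correlation with the mean of its own group, whereas only 1 of the 3 batch 2 libraries did. The library labelled M2_DMEM_KO_4 reached 0.917 with its own group and 0.97 with KO M0 in CM. The library labelled M2_CM_KO_4 reached 0.951 with its own group and 0.983 with WT M2 in DMEM, while its Trap1 count was 0. Neither library entered the batch 1 fit, and the tests below rest on the 24 batch 1 libraries. Counts and medians of the members in KO M2 comparisons are given with and without these libraries. Changes of single genes are from the batch 1 fit unless stated otherwise.

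Xist differed between genotypes in batch 1 only. The 13 WT libraries had 266.5 to 525 CPM of Xist and the 12 KO libraries of batch 1 had at most 1.14 CPM. The libraries labelled M2_DMEM_KO_4 and M2_CM_KO_4 had 401 and 313 CPM. The labels give all mice as female, and whether the batch 1 KO mice differed in sex was not tested. Whatever differs with Xist in batch 1 cannot be told apart from the genotype there.

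Macrophage markers were high in every library: all 10 of 10 passed the filter on low counts, with a summed level of 8816 to 13080 CPM in batch 1, and Lyz2 was the most abundant at 33.9% of the sum. The mean was higher in KO than in WT cells: 11390 against 9747 CPM in M0 in DMEM, 10980 against 8942 in M0 in CM, 10790 against 9737 in M2 in DMEM and 10240 against 9310 in M2 in CM. In that order 6, 6, 4 and 5 markers were called higher and 1, 0, 0 and 2 lower. The shares of all genes called higher were 8.64, 19.1, 8.56 and 17.2%. The part of this list in the results was not tested. Of 12 monocyte and granulocyte markers, 7 passed, and Ccr2 made up 93.1% of their sum. That sum was 370.3, 380.2 and 372 CPM in WT M0 in DMEM, 202, 202 and 187 in KO M0 in DMEM, 118, 142 and 137 in WT M0 in CM and 359, 303 and 324 in KO M0 in CM. In M2 cells it was 289, 292 and 293 in WT in DMEM, 237, 205 and 249.5 in KO in DMEM, 131, 89.7 and 107 in WT in CM and 63.2, 67.4 and 78.5 in KO in CM. This sum, mostly Ccr2, fell in CM in WT M0 cells and rose in KO M0 cells, and its part in the results was not tested. The list as a whole did not fall in WT M0 cells. By the test described below, 3 of its 7 markers were higher and 1 lower in CM there, with a median log2 change of 0.65. The shares of all genes were 11.3% higher and 9.96% lower.

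Progenitor markers (Kit, the most abundant, with Cd34, Flt3 and Gata2) summed to 2.47, 6.33 and 3.06 CPM in WT M0 in DMEM, 3.49, 6.08 and 4.60 in KO M0 in DMEM, 4.02, 4.38 and 3.98 in WT M0 in CM and 1.38, 0.239 and 1.26 in KO M0 in CM. In M2 cells the sum was 5.88, 7.02 and 6.02 in WT in DMEM, 3.46, 3.71 and 4.41 in KO in DMEM, 7.46, 6.41 and 4.23 in WT in CM and 0.656, 1.55 and 1.14 in KO in CM. It was lowest in KO cells in CM, where the division genes were lowest too, and its part in the results was not tested. Of the 4 progenitor markers, 3 passed the filter.

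Markers of other lineages differed in level in batch 1. Erythroid and megakaryocyte markers summed to at most 3.38 CPM (1 of 9 passed, Gp1ba most abundant, Hba-a1 and Car1 at 0) and lymphoid markers to at most 3.96 CPM (1 of 9 passed, Cd79b most abundant, Cd79a and Trbc2 at 0). Fibroblast markers reached at most 4.66 CPM (1 of 7 passed, Col1a1 most abundant, Lum at 0), and Schwann lineage and neural crest markers, the lineage of the tumour cells, 3.94 to 10.8 CPM (3 of 7 passed, Erbb3 most abundant, Ngfr and Foxd3 at 0). Dendritic cell and mast cell markers summed to 3.69 to 15.8 CPM (5 of 6 passed, Zbtb46 most abundant, none at 0 in all libraries). Endothelial markers summed to 3.17 to 56.2 CPM, of which Kdr was 98.3% (1 of 4 passed, Tek and Emcn at 0). The endothelial sum was 18.6, 16.7 and 21.3 CPM in WT M0 in DMEM, 26.1, 29.99 and 32.4 in KO M0 in DMEM, 56.2, 52.2 and 51.1 in WT M0 in CM and 39.8, 39.8 and 39 in KO M0 in CM. In M2 cells it was 3.17, 3.64 and 3.36 CPM in WT in DMEM, 5.26, 5.30 and 4 in KO in DMEM, 29.96, 26.1 and 20.6 in WT in CM and 42.6, 43.6 and 43.6 in KO in CM, so it was higher in CM in both genotypes. The part of these lists in the results was not tested.

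The 8 IL-4 response markers all passed, with Mrc1 the most abundant at 61.1%. Their sum was 759.9, 795 and 783 CPM in WT M0 in DMEM, 869, 904 and 837 in KO M0 in DMEM, 1186, 1380 and 1357 in WT M0 in CM and 2713, 2607 and 2736 in KO M0 in CM. In M2 cells it was 3342, 3295 and 3305 in WT in DMEM, 2838, 3001 and 2747 in KO in DMEM, 5116, 5009 and 5037 in WT in CM and 4506, 4777 and 4346 in KO in CM. M2 libraries thus lay above M0 libraries of the same medium and genotype. The library labelled M2_DMEM_KO_4 had 742 CPM, near the M0 level in DMEM, and M2_CM_KO_4 had 6131 CPM.

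All 48 kept genes had at least 3 counts in each of the 24 batch 1 libraries. The members nearest the threshold were Exo1, whose lowest library had 3 counts, and Gins2, with 7 in its lowest. Kif20a, a mitotic kinesin, fell outside, with 0 to 3 counts and 3 counts in 1 library. It has no test, and at that depth no difference in it was detectable.

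Summed over the 27 S-phase members, M0 libraries had 2114, 2084 and 2081 CPM in WT cells in DMEM and 923, 928 and 963 in KO cells in DMEM. In CM the sums were 2837, 2822 and 2784 in WT M0 and 453, 433 and 453 in KO M0. The genotypes did not overlap in either medium, and CM went with a higher sum in WT cells and a lower one in KO cells. In M2 cells the sums were 1198, 1179 and 1140 in WT in DMEM and 1083, 1120 and 1102 in KO in DMEM, 1895, 1941 and 1928 in WT in CM and 640.2, 643 and 644 in KO in CM. The M2 genotypes lay close together in DMEM and far apart in CM. Pcna was the most abundant S-phase member, with 10.7% of the sum.

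The 21 G2/M members summed to 2809, 2334 and 2306 CPM in WT M0 in DMEM, 1308, 1133 and 1142 in KO M0 in DMEM, 3111, 2555 and 2597 in WT M0 in CM and 285, 242 and 261 in KO M0 in CM. In M2 cells the sums were 850.5, 805 and 814 in WT in DMEM, 998, 1012 and 1005 in KO in DMEM, 1817, 1466 and 1430 in WT in CM and 336, 317 and 339.6 in KO in CM. KO cells in CM were lowest for both polarizations, and in M2 cells in DMEM the KO libraries lay above the WT libraries. Top2a was the most abundant G2/M member, with 15.3% of the sum. In these bulk libraries a smaller share of cycling cells and less of these RNAs per cell cannot be told apart.

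As means with SD over 3 libraries, the S-phase sum was 2093 ± 18.03 CPM in WT M0 in DMEM, 938 ± 21.7 in KO M0 in DMEM, 2814 ± 26.8 in WT M0 in CM and 447 ± 11.7 in KO M0 in CM. The KO to WT ratio in M0 cells was 0.448 in DMEM and 0.159 in CM. For G2/M members the ratio was 0.481 in DMEM and 0.0954 in CM, so the fall in CM was deeper in the G2/M sum. In M2 cells the S-phase ratio was 0.94 in DMEM and 0.334 in CM, and the G2/M ratio was 1.22 and 0.211.

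The ratio of the G2/M sum to the S-phase sum was 1.33, 1.12 and 1.11 in WT M0 in DMEM, 1.42, 1.22 and 1.19 in KO M0 in DMEM, 1.10, 0.905 and 0.933 in WT M0 in CM and 0.628, 0.56 and 0.575 in KO M0 in CM. In M2 cells it was 0.71, 0.682 and 0.714 in WT in DMEM, 0.921, 0.904 and 0.912 in KO in DMEM, 0.959, 0.755 and 0.741 in WT in CM and 0.526, 0.494 and 0.527 in KO in CM. It was lowest in KO cells in CM, for both polarizations, and replicate 1 stood above its neighbours in the M0 groups and in WT M2 in CM.

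**Figure D1:**
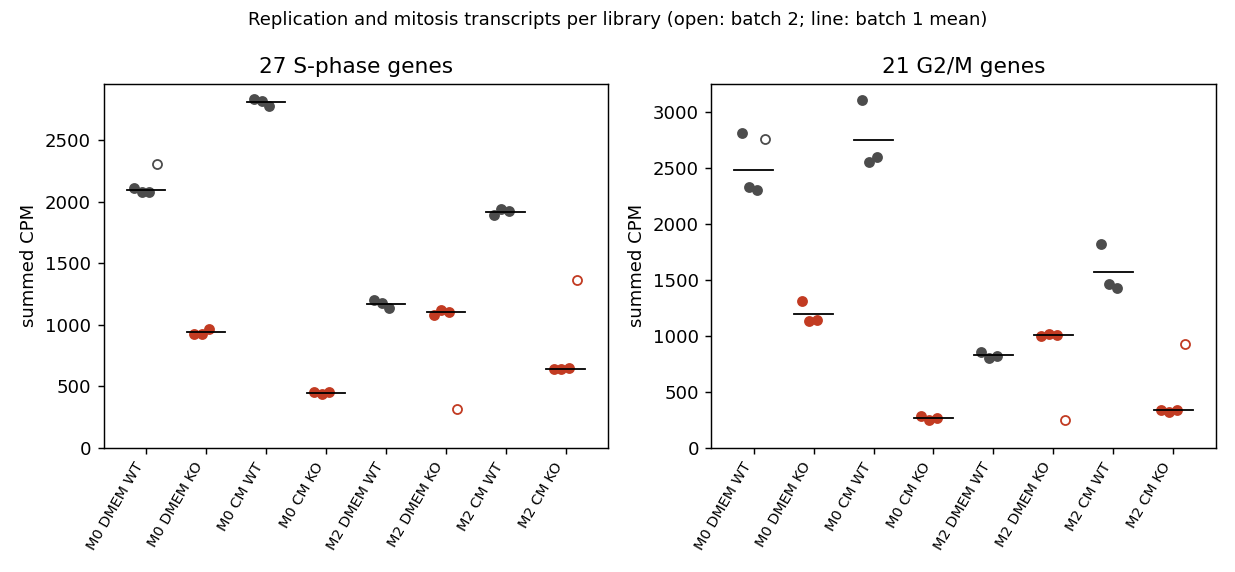
Summed CPM of the 27 S-phase and the 21 G2/M members in each of the 27 libraries, by group. Points are libraries (red KO, grey WT, open batch 2), and lines are the means of the 3 batch 1 libraries. Among batch 1 groups KO M0 in CM sits lowest, at 433 to 453 CPM for S-phase members and 242 to 285 CPM for G2/M members.

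The batch 2 library WT M0 DMEM 4 had sums of 2311 CPM for S-phase members, above the other 3 of its group, and 2763 CPM for G2/M members, within them. For M2_DMEM_KO_4 as labelled the sums were 317 and 244 CPM, below every batch 1 library for S-phase members and within the KO M0 in CM libraries for G2/M members. For M2_CM_KO_4 as labelled they were 1365 and 927 CPM, above its own group in both.

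**Figure D2:**
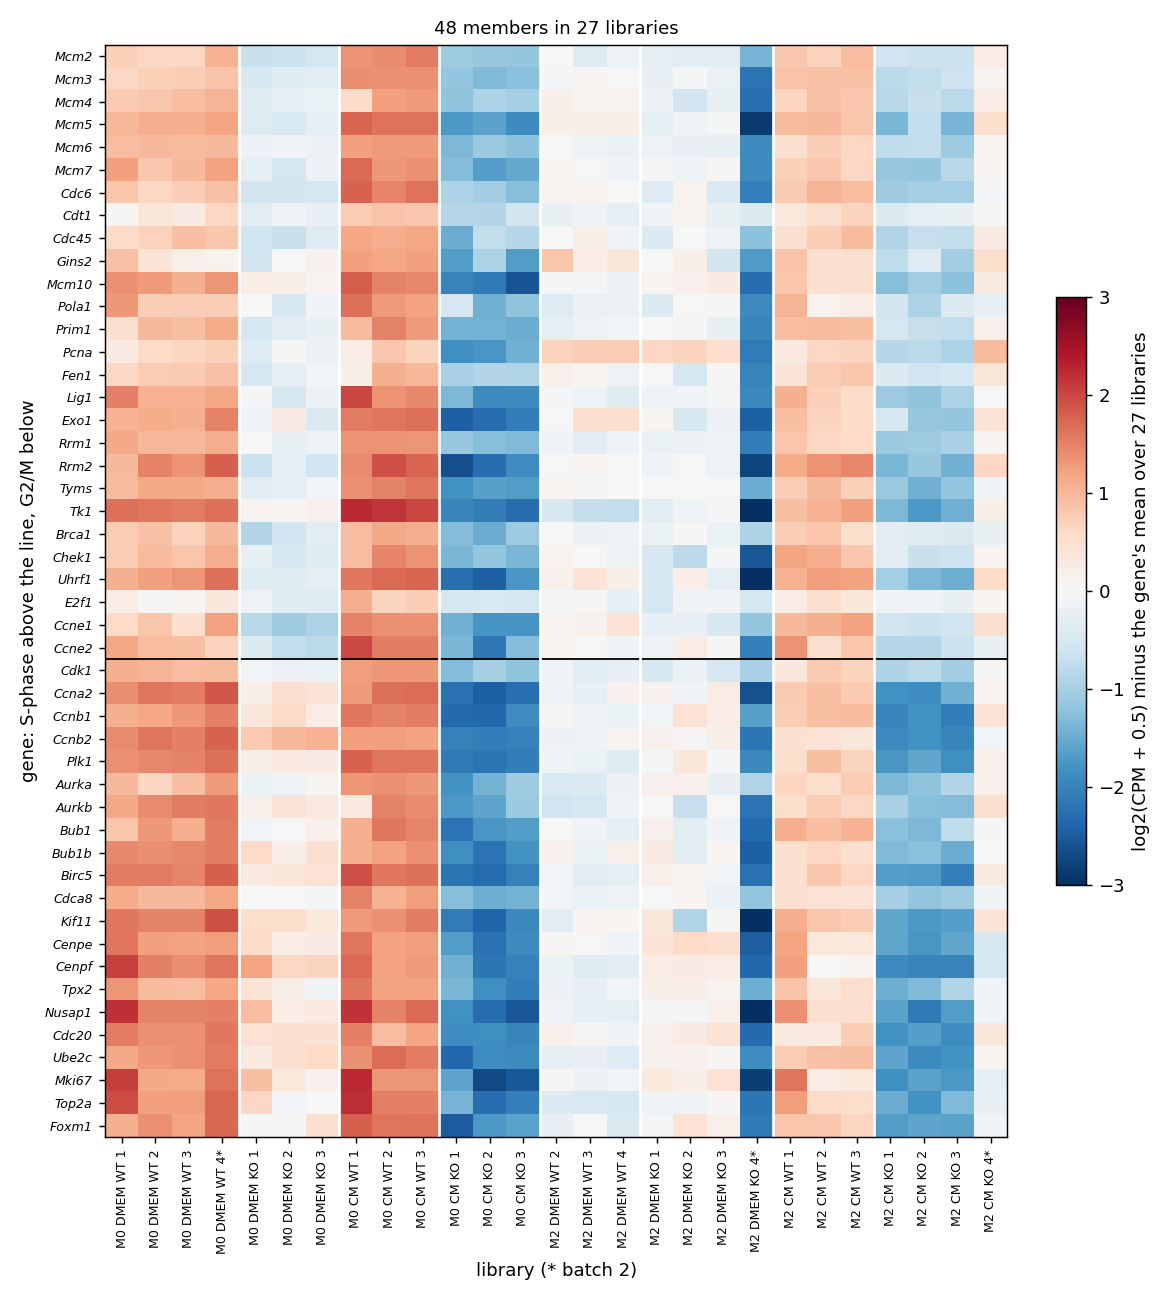
Level of each kept member in each library, as log2 of CPM plus 0.5 minus the member's mean over 27 libraries, with members from top to bottom by role and libraries from left to right by group. KO cells in CM form the low block and WT M0 cells the high block, and the libraries labelled M2_DMEM_KO_4 and M2_CM_KO_4 differ in shade from their groups.

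Differences were tested with edgeR's quasi-likelihood test on the 13614 genes that passed its filter, with Benjamini-Hochberg adjustment over all of them, and called at an adjusted p under 0.05. SE is an approximate standard error, the absolute log2 change divided by the square root of the test's F statistic, and FDR is the adjusted p. The question in the first 4 comparisons is what the loss of TRAP1 goes with in each culture. After TMM scaling, which centres the bulk of the genes, the median change over all genes tested was between -0.052 and 0.053 on the log2 scale in every comparison, and the changes below are relative to that bulk.

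In M0 cells in DMEM, 26 of 27 S-phase and 20 of 21 G2/M members were lower in KO than in WT cells, against 7.97% of all genes tested. The exceptions were Gins2 and Mki67, with adjusted p of 0.0975 and 0.077. The median log2 change was -1.27 for S-phase and -1.03 for G2/M members. With all 27 libraries 24 and 5 members were called lower and the medians were -1.39 and -1.12, so the sizes held while the G2/M calls fell. That fit called 854 of all 13723 genes it tested, against 1176 higher and 1085 lower of 13614 in batch 1. It called fewer genes over all than the batch 1 fit in every comparison. Without the 2 batch 2 KO libraries 47 of the 48 were called.

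In M0 cells in CM, all 27 S-phase and all 21 G2/M members were lower in KO cells, against 19.2% of all genes. The median log2 change was -2.79 for S-phase and -3.44 for G2/M members, and the members other than Exo1 ranged from -4.32 to -1.35. The count of 27 includes Exo1, which is described below without a test because its KO libraries there held 3 to 5 counts. These counts were the same, 27 and 21, with all 27 libraries. The G2/M members lay lower than the S-phase members here, whereas in DMEM the order was the other way.

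In M2 cells in DMEM, 3 members were higher and 2 lower in KO cells, against 8.56% and 7.87% of all genes, so the members' share was near or below the background. The S-phase median was -0.12 and the G2/M median 0.28. With the replicate number as a block both lower calls, Mcm4 and Ccne1, and the higher call of Plk1 ended, Aurka was called higher, and 3 members were called in all. Leaving out WT M2 DMEM 4, as the block in effect does, also ended the calls of Mcm4, Ccne1 and Plk1. The lost calls cannot be put down to the pairing of numbers alone. The count of 5 fell to 3 without WT M2 DMEM 3 and to 1 without WT M2 DMEM 4. Over all 27 libraries the medians were -0.38 and -0.07, so the G2/M median changed sign. In that fit edgeR called 0 of the 48, and 1137 of all 13723 genes. Of the 48, 5 had an unadjusted p under 0.05 and the smallest adjusted p was 0.0581, and with batch as a covariate edgeR called 1. Without the 2 batch 2 KO libraries the count over the remaining 25 was 5.

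In M2 cells in CM, all 27 S-phase and 21 G2/M members were lower in KO cells, against 16.8% of all genes. The median log2 change was -1.62 for S-phase and -2.38 for G2/M members. Over all 27 libraries 23 and 19 members were called lower, with medians of -1.33 and -1.73. The fall in KO M2 cells in CM was present with and without the library labelled M2_CM_KO_4 and was smaller with it.

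The next 4 comparisons ask what exposure to CM goes with in each kind of cell. In WT M0 cells, 18 of 27 S-phase members were higher in CM and none was lower, and of the G2/M members 3 were higher (Aurka, Foxm1 and Ccnb1) and 1, Ccnb2, was lower, against 11.3% higher and 9.96% lower of all genes. The medians were 0.46 and 0.21. These are small changes, and some calls hung on single libraries. Leaving out the 6 libraries of these groups in turn gave 15 to 19 called members. Among S-phase members Exo1 lost its call in all 6 of these fits, Gins2 in 5 and Rrm2 in 4. With all 27 libraries 3 members were called while the medians were 0.43 and 0.18, so the sizes stayed near those of batch 1. That fit called 958 of all 13723 genes, against 1533 higher and 1356 lower of 13614 in batch 1. Without the 2 batch 2 KO libraries, with WT M0 DMEM 4 kept, 22 members were called.

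In KO M0 cells, 25 of 27 S-phase members (all but Cdc45 and E2f1) and 21 of 21 G2/M members were lower in CM, against 18.1% of all genes. The count of 25 includes Exo1, described without a test. The medians were -1.14 and -2.48. With all 27 libraries, none of batch 2 in these groups, 15 and 21 were called lower.

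In WT M2 cells, 24 of 27 S-phase members (all but Exo1, Pcna and Gins2) and 19 of 21 G2/M members (all but Mki67 and Cdc20) were higher in CM, against 11.2% of all genes. The medians were 0.77 and 0.88. When all 27 libraries were fitted, none of batch 2 in these groups, 8 members were called higher while the medians were 0.81 and 0.92. The estimates thus stayed in place and fewer passed the threshold. That fit called 1014 of all 13723 genes. Without the 2 batch 2 KO libraries 43 members were called.

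In KO M2 cells, 19 of 27 S-phase and 21 of 21 G2/M members were lower in CM, against 20.2% of all genes. The medians were -0.69 and -1.85. With all 27 libraries, in which both libraries that go against their labels take part, 1 member was called and the medians were -0.03 and -0.73. That fit called 826 of all 13723 genes, against 2268 higher and 2748 lower of 13614 in batch 1. With batch as a covariate as well, edgeR called 0 of the 48, where 11 had an unadjusted p under 0.05 and the smallest adjusted p was 0.0724. Without those libraries 39 were called. The result in KO M2 cells thus rests on leaving them out.

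M2 against M0 cells compares polarization within a genotype and medium. In WT cells in DMEM, 24 of 27 S-phase members (all but Pcna, Gins2 and E2f1) and 21 of 21 G2/M members were lower in M2 cells, against 18.1% of all genes. The medians were -0.92 and -1.60. In WT cells in CM, 23 S-phase and 19 G2/M members were lower in M2 cells, against 13% of all genes, with medians of -0.69 and -0.82. When all 27 libraries were fitted the latter counts were 1 and 2, with medians of -0.68 and -0.81. The WT groups in CM hold no batch 2 library. For WT cells in CM that fit called 1204 of all 13723 genes. Without the 2 batch 2 KO libraries 39 members were called.

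In KO cells in DMEM, 6 S-phase members were higher and 5 G2/M members lower in M2 than in M0 cells, against 15.6% higher and 12.9% lower of all genes. The medians were 0.19 and -0.24. The count of 11 fell to 7 without KO M0 DMEM 1, to 6 without KO M2 DMEM 2 and to 7 without KO M0 DMEM 3. With all 27 libraries it was 1 and the medians were -0.07 and -0.58, so the S-phase median changed sign, and without the 2 batch 2 KO libraries it was 9. Over both lists together the members' share here was near the background, unlike in WT cells. Within a list, 6 of 27 S-phase members higher and 5 of 21 G2/M members lower were somewhat above it. The difference between the genotypes in the response to IL-4 was not tested.

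In KO cells in CM, 19 S-phase and 5 G2/M members were higher in M2 cells, against 6.71% of all genes. Exo1, with few counts in the KO M0 libraries, is described without a test here too. The medians were 0.63 and 0.31. Over all 27 libraries 5 members were called and the medians were 0.94 and 0.96, and without the 2 batch 2 KO libraries 22 were called. The direction is the reverse of that in WT cells in CM.

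The difference between the genotypes in the response to CM was tested as a genotype by medium term, the KO minus WT change in CM less that in DMEM. In M0 cells 26 of 27 S-phase members (all but Fen1) and 21 of 21 G2/M members were called with a negative term, against 11.5% of all genes, with medians of -1.56 and -2.46. In M2 cells 25 S-phase members (all but Gins2 and E2f1) and 21 G2/M members were, against 10.8% of all genes, with medians of -1.31 and -2.66. The count in M0 cells includes Exo1, described without a test. The members' response to CM thus differed between WT and KO cells in the batch 1 libraries of both polarizations. Over all 27 libraries 16 S-phase and 18 G2/M terms were called in M0 cells. In the same fit edgeR called 0 of 48 terms in M2 cells, where 32 had an unadjusted p under 0.05 and the smallest adjusted p was 0.0515. The M2 medians there were -0.82 and -1.52, smaller than in batch 1. Over all genes that fit called 180 terms of 13723 in M2 cells. Without the 2 batch 2 KO libraries edgeR called 46 of the 48.

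These comparisons share groups. Each group of WT or KO cells in a given medium enters a genotype, a medium, a polarization and an interaction comparison, so the counts above are not independent of one another and no overlap between them is given.

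**Figure D3:**
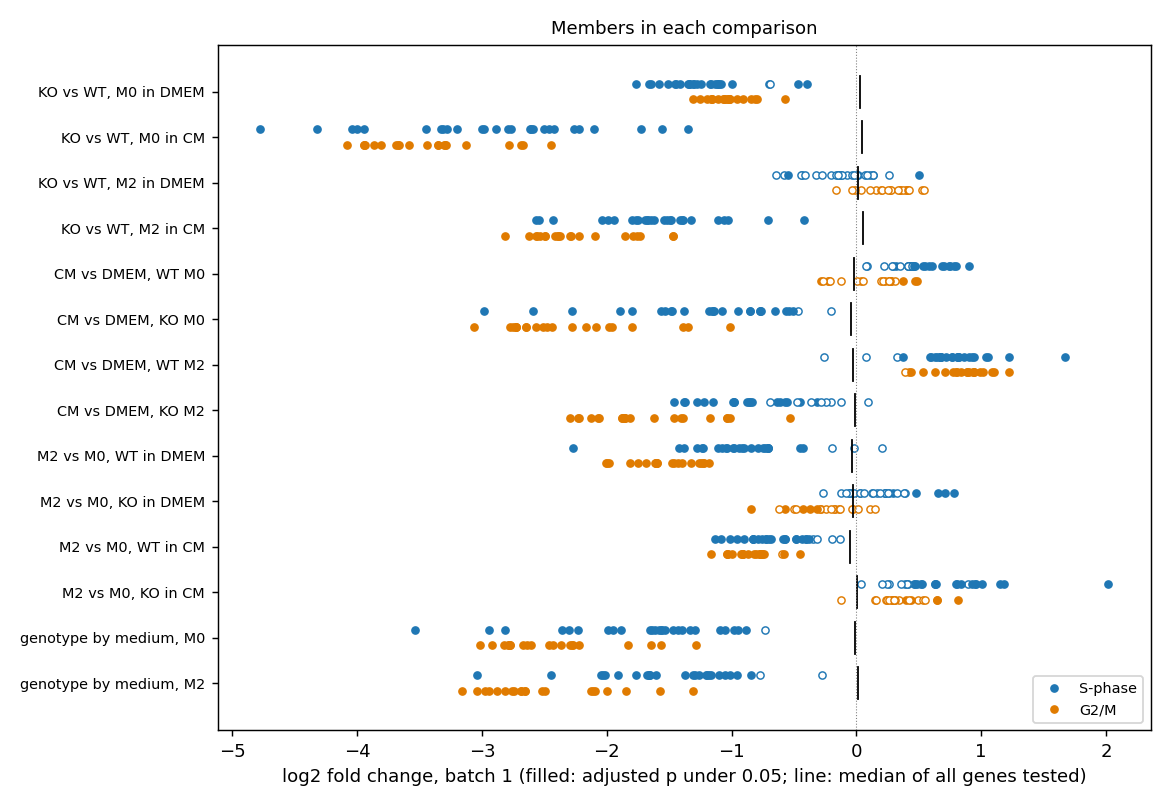
Log2 fold change of each kept member in each of the 14 comparisons, S-phase and G2/M members side by side, from the 24 batch 1 libraries. Points are members (blue S-phase, orange G2/M, filled where called), and the short lines are medians of all genes tested. The KO against WT points in CM all lie below 0 in M0 and in M2 cells, whereas in M2 cells in DMEM they lie on both sides of 0.

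Promoter windows from 250 bases before to 50 bases after the start of each gene were taken from a RefSeq table (build GRCm38.p6), which held 32851 windows of 27025 genes and 40 of the 49 named members. Exo1, Mcm4, Gins2, Ccne2, Ccna2, Aurkb, Kif20a, Tpx2 and Foxm1 have no entry. The letters searched on both strands were TTTCCCGC, TTTGGCGC, TTTCGCGC or TTTGCCGC for E2F, TTTGAA for the CHR and CCAAT for the CCAAT box. Matches of different motifs may overlap, and an E2F match can overlap another on the opposite strand. A match describes letters and is not a tested site.

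Shares are of genes with a match in any of their windows. An E2F match was in 9 of 23 S-phase genes, 39.1% (Wilson 95% interval 22.2 to 59.2%), in 1 of 17 G2/M genes, 5.88%, and in 2.6% of all genes. The S-phase members with it were Cdc6, Cdt1, Lig1, Mcm3, Mcm5, Mcm6, Mcm7, Pola1 and Uhrf1, and the G2/M member was Cdk1. Lig1 and Uhrf1 have it only in the second window listed for them. A CHR match was in 3 of 23 S-phase genes, 13%, in 12 of 17 G2/M genes, 70.6% (46.9 to 86.7%), and in 20.2% of all genes. A CCAAT box was in 60.9% of S-phase genes, 88.2% of G2/M genes and 41.1% of all genes. All 12 G2/M genes with a CHR match also had a CCAAT box, and both were in 8.7% of S-phase genes and 8.97% of all genes. Members were picked by name for their part in the cycle, so these shares describe the list.

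**Figure D4:**
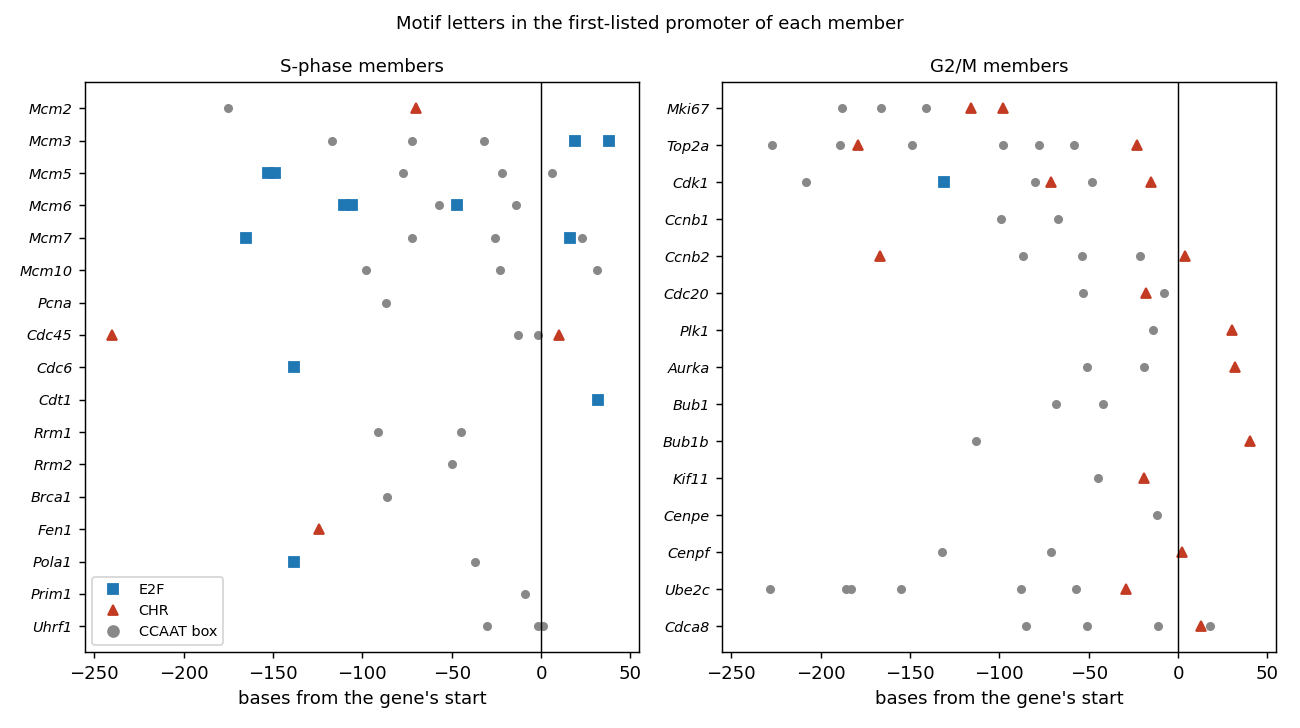
Distance of each motif match from the start of the gene, in bases, in the first window listed for each S-phase and each G2/M member with a match. Squares are E2F, triangles CHR and circles CCAAT boxes, and squares sit mostly among S-phase members and triangles mostly among G2/M members, in 12 of 17 genes.

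Windows are printed below for the 3 members of each list with the largest fall in KO M0 cells in CM that have an entry (Tk1, Mcm10, Rrm2, Nusap1, Mki67 and Birc5). They are joined by Mcm5, Top2a and Cdk1, which were added after the matches were seen because their windows hold an E2F or a CHR match. Each is written 5′ to 3′ on the strand of its gene in lower case, and capitals mark E2F, CHR and CCAAT matches, which appear as their reverse complement where the match is on the other strand.

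The MCM helicase, MCM2 to MCM7, is loaded on origins before S phase and unwinds DNA in it. Mcm5 encodes 1 of its 6 subunits, and its window (chr8:75109259-75109558, plus strand) holds 2 overlapping E2F matches on opposite strands and 3 CCAAT boxes:
Mcm5: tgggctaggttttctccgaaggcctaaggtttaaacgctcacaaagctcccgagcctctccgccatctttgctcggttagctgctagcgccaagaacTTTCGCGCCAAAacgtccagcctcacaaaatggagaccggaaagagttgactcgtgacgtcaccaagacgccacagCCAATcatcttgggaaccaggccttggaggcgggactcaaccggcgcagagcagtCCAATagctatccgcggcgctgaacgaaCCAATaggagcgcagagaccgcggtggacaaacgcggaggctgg
Mcm5 in M0 cells was, in CPM, 73.97, 78.8 and 79.1 in WT in DMEM, 28.2, 26.5 and 29.7 in KO in DMEM, 124, 114 and 115 in WT in CM and 10.8, 11.8 and 9.56 in KO in CM. KO lay below WT in each medium without overlap, and CM went with more in WT and less in KO cells. In M2 cells Mcm5 was, in CPM, 41.3, 41.3 and 42.4 in WT in DMEM, 30.5, 33.4 and 35.5 in KO in DMEM, 71.05, 72.04 and 66.02 in WT in CM and 13.9, 21.9 and 13.8 in KO in CM. The M2 genotypes also did not overlap in DMEM, at a much smaller distance than in CM. The log2 change of Mcm5 between KO and WT was -1.46 (SE 0.12, FDR = 1.33e-09) in M0 in DMEM, -3.45 (SE 0.13, FDR = 5.64e-17) in M0 in CM and -1.99 (SE 0.13, FDR = 1.79e-12) in M2 in CM. In M2 cells in DMEM it was -0.33 (SE 0.12, FDR = 0.0717). For Mcm5 the genotype by medium term was -1.99 (SE 0.18, FDR = 2.63e-09) in M0 and -1.66 (SE 0.18, FDR = 6.28e-08) in M2 cells.

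The other helicase subunits moved with Mcm5. Between KO and WT the 6 subunits had log2 changes of -1.46 (Mcm5) to -1.09 (Mcm3) in M0 in DMEM and -3.45 (Mcm5) to -2.10 (Mcm4) in M0 in CM, all lower. In M2 cells in CM they ran from -1.99 (Mcm5) to -1.39 (Mcm6), all lower, and in DMEM from -0.44 (Mcm4) to -0.04 (Mcm7), where Mcm4 was called. Mcm4 was 58.8, 55.9 and 56.5 CPM in WT and 46, 35 and 44.96 in KO M2 cells in DMEM, which do not overlap. Its adjusted p was 0.0282, and the call ended without WT M2 DMEM 2 (0.0871), KO M2 DMEM 2 (0.15), WT M2 DMEM 3 (0.0574) or WT M2 DMEM 4 (0.0695). Mcm2 was 41.4, 38.6 and 39.05 CPM in WT M0 in DMEM and 64.2, 68.2 and 74.6 in CM. It rose by 0.80 on the log2 scale in CM (FDR = 6.25e-07), and in CM all 3 libraries lay above the 3 in DMEM.

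Licensing and firing of origins need CDC6 and CDT1, which load the helicase, and CDC45, GINS and MCM10, which activate it. The Mcm10 window (chr2:5012742-5013041, minus strand) holds 3 CCAAT boxes and no E2F or CHR match:
Mcm10: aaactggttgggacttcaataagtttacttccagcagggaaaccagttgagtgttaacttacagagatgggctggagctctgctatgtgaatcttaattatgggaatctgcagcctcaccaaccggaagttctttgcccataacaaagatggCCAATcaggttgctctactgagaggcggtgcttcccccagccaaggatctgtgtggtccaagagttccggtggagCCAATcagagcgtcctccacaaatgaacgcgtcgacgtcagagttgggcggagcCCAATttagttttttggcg
Mcm10 in M0 cells was, in CPM, 34.6, 32.3 and 27.96 in WT in DMEM, 15.2, 15.1 and 13.8 in KO in DMEM, 47.1, 37.7 and 36.3 in WT in CM and 2.88, 2.63 and 1.76 in KO in CM. The KO cells in CM lay far below every other M0 library. In M2 cells Mcm10 was, in CPM, 12.5, 12.5 and 11.5 in WT in DMEM, 13.8, 14.3 and 15.4 in KO in DMEM, 23.4, 18.2 and 18.3 in WT in CM and 5.12, 6.10 and 5.30 in KO in CM. KO libraries were slightly above WT libraries in DMEM and far below them in CM. Mcm10 differed between KO and WT by a log2 change of -4.04 (SE 0.17, FDR = 3.08e-16) in M0 in CM and -1.77 in M2 in CM (FDR = 9.16e-10), and it was 0.26 in M2 in DMEM, which was not called (FDR = 0.247). From DMEM to CM it fell by 2.59 in KO M0 and by 1.38 in KO M2 cells. The genotype by medium term in M0 cells was -2.94 (SE 0.22, FDR = 1.48e-10).

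Cdc6 was 25.4, 21.9 and 23.99 CPM in WT M0 in DMEM and 49.01, 39.7 and 44.4 in WT M0 in CM, and it had the largest rise among the S-phase members in that comparison, 0.90 (SE 0.13, FDR = 7.12e-06). Over the 5 licensing and firing members, the KO against WT change in M0 in CM ran from -4.04 (Mcm10) to -1.55 (Cdt1), all lower, and Cdt1 was the least changed in M2 in CM as well. Cdt1 was 119.6, 128 and 124 CPM in WT M0 in CM and 38.9, 38.6 and 48.3 in KO M0 in CM, still without overlap.

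PCNA is the sliding clamp that holds polymerases on DNA. Pcna in M0 cells was, in CPM, 151, 195 and 200.2 in WT in DMEM, 97.1, 125 and 114 in KO in DMEM, 149.8, 226 and 203 in WT in CM and 35.1, 37.9 and 46.8 in KO in CM, with KO below WT in both media and no overlap. In M2 cells Pcna was, in CPM, 208, 214 and 212 in WT in DMEM, 196, 203 and 180.3 in KO in DMEM, 156, 196 and 203 in WT in CM and 69.9, 73.2 and 65.5 in KO in CM. Here WT cells had no more in CM than in DMEM, unlike most members, and KO cells in CM stood apart below. Pcna differed between KO and WT by a log2 change of -0.70 (SE 0.14, FDR = 0.000648) in M0 in DMEM, -2.26 (SE 0.15, FDR = 6.36e-12) in M0 in CM and -1.33 (SE 0.14, FDR = 5.07e-08) in M2 in CM. From M0 to M2 in DMEM Pcna rose by 0.78 in KO cells (FDR = 8.89e-05), while in WT cells it changed by 0.21 and was not called (FDR = 0.245). In KO M2 cells it fell by 1.46 in CM, the largest fall among S-phase members there. Pcna was 29.4 CPM in the library labelled M2_DMEM_KO_4 and 247 CPM in M2_CM_KO_4, the reverse order, and with all 27 libraries the change was -0.40 (FDR = 0.614).

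EXO1 is an exonuclease of mismatch repair and of resection at breaks. Exo1 in M0 cells was, in CPM, 9.37, 9.82 and 9.51 in WT in DMEM, 3.87, 5.17 and 3.02 in KO in DMEM, 13.5, 14.1 and 14.5 in WT in CM and 0.375, 0.478 and 0.629 in KO in CM, and the 3 KO libraries in CM rest on 3 to 5 counts each. In M2 cells Exo1 was, in CPM, 4.22, 6.24 and 6.16 in WT in DMEM, 4.51, 2.92 and 3.72 in KO in DMEM, 8.37, 7.05 and 6.48 in WT in CM and 2.89, 1.67 and 1.64 in KO in CM. KO cells were lowest in CM in both polarizations. In M0 cells in CM the KO libraries lay below every other library of batch 1, which is given as a description with no test. Exo1 differed between KO and WT by a log2 change of -1.24 (SE 0.22, FDR = 0.000137) in M0 in DMEM and -1.75 (SE 0.24, FDR = 2.55e-06) in M2 in CM. In M2 in DMEM it was -0.58 and was not called (FDR = 0.0963). The fall in CM in KO M2 cells, -0.84 (FDR = 0.0142), was no longer called without KO M2 DMEM 1 (0.0866), KO M2 CM 2 (0.0757) or KO M2 CM 3 (0.0694). With all 27 libraries it was 0.14 (FDR = 0.883), and the library labelled M2_DMEM_KO_4 had 0.38 CPM and M2_CM_KO_4 had 5.82 CPM.

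Ligase 1 joins Okazaki fragments. Lig1 was 316, 229 and 226 CPM in WT M0 in DMEM and 106, 98.4 and 85.4 in WT M2 in DMEM, and replicate 1 was the highest of its M0 group. It was lower in M2 cells by a log2 change of -1.42 (SE 0.18, FDR = 2.87e-06). In CM Lig1 was 442, 283 and 298 in WT M0 and 43, 28.9 and 29.2 in KO M0, a change of -3.33 (SE 0.20, FDR = 3.21e-11). The 6 members of DNA synthesis and joining (Pola1, Prim1, Pcna, Fen1, Lig1 and Exo1) were all lower in KO cells in CM in M0 and in M2 cells, and in M2 cells in DMEM none was called.

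Nucleotides for S phase come from ribonucleotide reductase (Rrm1, Rrm2), thymidylate synthase (Tyms) and thymidine kinase (Tk1). RRM2 is the subunit of the reductase that varies with the cycle. The Rrm2 window (chr12:24708004-24708303, plus strand) has 1 CCAAT box, and the Tk1 window (chr11:117825965-117826264, minus strand) has no match to any of the letters searched:
Rrm2: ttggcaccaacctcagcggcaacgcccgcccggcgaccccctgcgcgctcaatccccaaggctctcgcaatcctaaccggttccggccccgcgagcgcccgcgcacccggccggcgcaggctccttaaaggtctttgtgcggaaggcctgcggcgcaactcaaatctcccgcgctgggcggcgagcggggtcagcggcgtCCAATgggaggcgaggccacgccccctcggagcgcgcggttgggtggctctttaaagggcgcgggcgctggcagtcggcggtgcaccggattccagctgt
Tk1: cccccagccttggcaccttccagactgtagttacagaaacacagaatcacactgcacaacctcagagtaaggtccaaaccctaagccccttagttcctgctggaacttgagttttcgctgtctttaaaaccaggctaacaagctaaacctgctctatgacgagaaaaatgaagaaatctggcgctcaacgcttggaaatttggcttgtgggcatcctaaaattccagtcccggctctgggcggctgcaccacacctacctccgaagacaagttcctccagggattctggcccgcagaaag
Rrm2 in M0 cells was, in CPM, 86.5, 124 and 113 in WT in DMEM, 28.1, 36.97 and 29.7 in KO in DMEM, 119, 169 and 149 in WT in CM and 6.62, 8.72 and 11.7 in KO in CM. The 4 M0 groups kept apart except for WT in DMEM and WT in CM, which overlapped. In M2 cells Rrm2 was, in CPM, 44.6, 46.3 and 43.4 in WT in DMEM, 39.99, 43.8 and 39.7 in KO in DMEM, 95.8, 113 and 119.9 in WT in CM and 16.8, 19.8 and 15.9 in KO in CM. WT and KO cells were about equal in DMEM, and CM went with more in WT and less in KO cells. Rrm2 differed between KO and WT by a log2 change of -1.77 (SE 0.16, FDR = 1.04e-08) in M0 in DMEM, -4.00 (SE 0.18, FDR = 5.54e-15) in M0 in CM and -2.56 (SE 0.17, FDR = 8.21e-12) in M2 in CM, while in M2 in DMEM it was -0.12 (FDR = 0.688). The rise in WT cells in CM was 1.23 (SE 0.15, FDR = 1.28e-06) in M2 cells. In M0 cells it was 0.43 (FDR = 0.0387) and was no longer called without WT M0 DMEM 1 (0.202), WT M0 CM 2 (0.188), WT M0 DMEM 3 (0.0665) or WT M0 CM 3 (0.0981).

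Tk1 in M0 cells was, in CPM, 89.99, 87.4 and 83.1 in WT in DMEM, 30.8, 29.5 and 31.3 in KO in DMEM, 136, 126 and 115 in WT in CM and 7.001, 6.33 and 5.41 in KO in CM, with KO below WT in both media. In M2 cells Tk1 was, in CPM, 20.2, 17.02 and 16.9 in WT in DMEM, 22.6, 25.99 and 27.6 in KO in DMEM, 53.9, 58.7 and 67.7 in WT in CM and 10.9, 8.21 and 10.2 in KO in CM. In DMEM KO M2 cells lay above WT M2 cells without overlap, and in CM far below them. Tk1 differed between KO and WT by a log2 change of -4.32 (SE 0.13, FDR = 7.45e-19) in M0 in CM, -2.54 (SE 0.12, FDR = 6.84e-15) in M2 in CM and 0.50 (SE 0.12, FDR = 0.00405) in M2 in DMEM. The rise in M2 in DMEM was called without each of the 6 libraries in turn, and with all 27 libraries it was 0.09 (FDR = 0.924). Tk1 had the largest fall of the S-phase members from M0 to M2 in WT cells in DMEM, -2.27 (FDR = 8.34e-15), and the largest rise in CM in WT M2 cells, 1.67 (FDR = 1.36e-11). For Tk1 the genotype by medium term was -2.81 in M0 (FDR = 1.69e-12) and -3.04 in M2 cells (FDR = 8.25e-13).

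Tyms was 23.7, 21.8 and 22.8 CPM in WT M2 in DMEM, 23, 22.5 and 22.8 in KO M2 in DMEM, 38.7, 45.1 and 37.6 in WT M2 in CM and 10.2, 8.10 and 9.71 in KO M2 in CM. Among M2 cells the genotypes parted only in CM, and the genotype by medium term of Tyms in M2 cells was -2.04 (SE 0.16, FDR = 4.37e-10). All 4 members of nucleotide supply were lower in KO M0 and M2 cells in CM, with changes of -4.32 (Tk1) to -2.59 (Rrm1) in M0 and -2.56 (Rrm2) to -1.67 (Rrm1) in M2 cells.

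UHRF1 carries DNA methylation over to the new strand, CHK1 is a kinase that guards replication forks, and BRCA1 acts in repair. Uhrf1 was 63.1, 67.7 and 70.8 CPM in WT M0 in CM and 3.88, 3.34 and 5.79 in KO M0 in CM, 43.3, 49.9 and 47.9 in WT M2 in CM and 9.84, 7.77 and 7.19 in KO M2 in CM. The log2 change of Uhrf1 between KO and WT was -3.94 (SE 0.18, FDR = 8.63e-16) in M0 and -2.43 (SE 0.16, FDR = 4.19e-12) in M2 cells. Chek1 was 5.13, 4.68 and 4.20 CPM in WT M2 in DMEM and 11.2, 10.6 and 8.60 in WT M2 in CM, a rise of 1.06 (SE 0.20, FDR = 0.000254). Brca1 was 4, 3.46 and 4.78 CPM in KO M0 in CM and 8.53, 8.10 and 7.95 in KO M2 in CM, a called log2 change of 1.00. The groups of each of these pairs did not overlap.

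E2F1 is itself an E2F target and starts the S-phase programme with cyclin E. E2f1 in M0 cells was, in CPM, 47.2, 41.2 and 42.8 in WT in DMEM, 36.5, 31.5 and 31.1 in KO in DMEM, 86.9, 64.8 and 68.4 in WT in CM and 28.5, 29.3 and 28.2 in KO in CM. KO lay below WT in both media. In M2 cells E2f1 was, in CPM, 39.6, 41.3 and 34.3 in WT in DMEM, 28.4, 37.4 and 37.8 in KO in DMEM, 47.1, 57.7 and 51.3 in WT in CM and 37.9, 37.7 and 34.4 in KO in CM. WT and KO cells overlapped in DMEM and not in CM. E2f1 changed less than the other S-phase members: between KO and WT by -1.35 (SE 0.12, FDR = 1.12e-09) in M0 in CM and by -0.42 (SE 0.12, FDR = 0.00796) in M2 in CM, a call that ended without WT M2 CM 2 (0.0555). In M0 in DMEM the change was -0.40 (SE 0.12, FDR = 0.0233), and the call ended without WT M0 DMEM 1 (0.0961), KO M0 DMEM 2 (0.0878) or KO M0 DMEM 3 (0.103). In KO M0 cells it was not called between the media (-0.20, FDR = 0.24), although its genotype by medium term was -0.95 (SE 0.17, FDR = 0.000165).

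Cyclin E drives entry into S phase with CDK2. Ccne1 in M0 cells was, in CPM, 21.8, 25.5 and 20.1 in WT in DMEM, 7.74, 6.46 and 7.22 in KO in DMEM, 40.9, 37.4 and 37.4 in WT in CM and 4.88, 3.82 and 3.77 in KO in CM. In M2 cells Ccne1 was, in CPM, 14.9, 15.5 and 19.2 in WT in DMEM, 11.9, 11.9 and 10.1 in KO in DMEM, 28.1, 30.2 and 33.3 in WT in CM and 9.58, 8.88 and 9.21 in KO in CM. KO lay below WT in every pairing, M2 cells in DMEM included. The log2 change of Ccne1 between KO and WT was -1.65 (SE 0.14, FDR = 1.52e-09) in M0 in DMEM. In M2 in DMEM it was -0.54 (SE 0.14, FDR = 0.00612), which was not called without WT M2 DMEM 4 (0.0602). From M0 to M2 it rose in KO cells by 0.66 in DMEM (FDR = 0.00105) and by 1.15 in CM (FDR = 8.34e-06). Ccne2 was 62.1, 52.7 and 52.3 CPM in WT and 20.7, 16.4 and 15.5 in KO M0 cells in DMEM, and its change there was -1.66 (SE 0.20, FDR = 2.04e-06). In KO M2 in DMEM Ccne2 was 25.6, 32.4 and 28.4 CPM, above KO M0 by 0.71 (FDR = 0.0114), a call that ended without KO M0 DMEM 3 (0.0551).

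CDK1 with cyclins A and B carries cells into mitosis. The Cdk1 window (chr10:69352863-69353162, minus strand) holds 1 E2F match, 2 CHR matches and 3 CCAAT boxes:
Cdk1: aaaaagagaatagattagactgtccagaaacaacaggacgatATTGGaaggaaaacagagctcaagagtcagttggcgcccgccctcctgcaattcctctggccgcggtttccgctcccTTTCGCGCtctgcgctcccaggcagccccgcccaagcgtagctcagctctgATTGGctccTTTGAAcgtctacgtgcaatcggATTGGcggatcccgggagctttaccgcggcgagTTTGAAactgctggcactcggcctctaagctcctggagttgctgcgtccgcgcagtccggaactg
Cdk1 in M0 cells was, in CPM, 193, 186 and 174 in WT in DMEM, 85.95, 81.3 and 79.3 in KO in DMEM, 219.5, 225 and 225 in WT in CM and 37, 45.7 and 39.1 in KO in CM. In M2 cells Cdk1 was, in CPM, 85.2, 73.03 and 76.8 in WT in DMEM, 65.4, 79.8 and 63.99 in KO in DMEM, 117, 159 and 145 in WT in CM and 47.9, 51.7 and 44.03 in KO in CM. The genotypes did not overlap in M0 cells or in M2 cells in CM, and they overlapped in M2 cells in DMEM. Cdk1 fell least of the G2/M members in KO M0 cells in CM, by a log2 change of -2.45 (SE 0.11, FDR = 1.48e-15). In M0 in DMEM the change was -1.16 (FDR = 7.66e-09) and in M2 in CM -1.47 (FDR = 3.51e-11). For Cdk1 the genotype by medium term was -1.28 in M0 and -1.31 in M2 cells.

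Cyclin B1 is the main mitotic cyclin. Ccnb1 in M0 cells was, in CPM, 54.5, 58.04 and 64.4 in WT in DMEM, 32.8, 38.5 and 30.3 in KO in DMEM, 78.9, 73.8 and 76.1 in WT in CM and 4.75, 4.66 and 6.79 in KO in CM, and KO cells in CM stood apart below the rest. In M2 cells Ccnb1 was, in CPM, 25.03, 23.6 and 22.3 in WT in DMEM, 24.4, 35.1 and 30.2 in KO in DMEM, 43.8, 48.7 and 50.3 in WT in CM and 6.17, 7.10 and 5.80 in KO in CM. KO M2 libraries in DMEM overlapped the WT libraries, and in CM they lay far below. Ccnb1 differed between KO and WT by a log2 change of -3.81 (SE 0.15, FDR = 8.68e-17) in M0 in CM and -2.81 (SE 0.15, FDR = 4.04e-14) in M2 in CM, the largest among the G2/M members in M2 cells. Its genotype by medium term was the largest of the G2/M list in both polarizations, -3.01 (SE 0.20, FDR = 8.68e-12) in M0 and -3.16 (SE 0.20, FDR = 5.23e-12) in M2 cells. The small rise in WT M0 cells in CM, 0.37 (FDR = 0.0287), was no longer called without WT M0 DMEM 1 (0.121), WT M0 CM 1 (0.0745), WT M0 DMEM 2 (0.0821) or WT M0 CM 3 (0.0655).

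Ccna2 encodes cyclin A2 and Ccnb2 cyclin B2. Ccna2 was 86.4, 113 and 115 CPM in WT M0 in CM and 7.13, 6.09 and 7.04 in KO M0 in CM, a log2 change of -3.95 (SE 0.15, FDR = 4.91e-17). In KO cells in CM it was 9.71, 9.32 and 12.7 CPM in M2 cells, higher than in M0 by 0.65 (FDR = 0.0102), a call that ended without KO M0 CM 2 (0.0594) or KO M2 CM 3 (0.0907). Ccnb2 was 48.8, 55.3 and 58.6 CPM in KO M0 in DMEM and 6.50, 6.33 and 6.54 in KO M0 in CM. Its fall in KO M0 cells was -3.06 (SE 0.11, FDR = 9.97e-18), the largest in that comparison among G2/M members. In WT M0 cells Ccnb2 was 75.3, 86.1 and 80.8 CPM in DMEM and 66.1, 67.2 and 65.6 in CM, a change of -0.28 (FDR = 0.024) that was not called without WT M0 CM 1 (0.0531), WT M0 DMEM 2 (0.125), WT M0 CM 2 (0.0514), WT M0 DMEM 3 (0.0653) or WT M0 CM 3 (0.0723). From M0 to M2 in KO cells in DMEM Ccnb2 fell to 30.7, 28.5 and 31.9 CPM, a change of -0.84 (FDR = 7.81e-08).

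PLK1 and the Aurora kinases build the spindle, and BUB1 and BUBR1 (Bub1b) serve its checkpoint. Plk1 in M0 cells was, in CPM, 89.4, 93.7 and 98.1 in WT in DMEM, 38.9, 42.5 and 40.8 in KO in DMEM, 119, 105 and 105 in WT in CM and 7.50, 7.17 and 7.80 in KO in CM. KO cells lay below WT cells in both media, by -1.20 in DMEM (FDR = 8.86e-09) and -3.87 in CM (FDR = 4.48e-18). In M2 cells in DMEM Plk1 was 31.4, 29.8 and 26.8 CPM in WT and 33.7, 44.02 and 33.4 in KO cells. KO was higher by 0.35 (FDR = 0.0417), a call that ended without KO M2 DMEM 1 (0.0508), WT M2 DMEM 2 (0.0708), KO M2 DMEM 2 (0.406), WT M2 DMEM 3 (0.122) or WT M2 DMEM 4 (0.214).

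Aurka was 46.9, 37.2 and 44.2 CPM in WT M0 in DMEM and 59.1, 61.2 and 58.96 in CM, a rise of 0.48 (FDR = 0.012) that was not called without WT M0 DMEM 2 (0.081). Bub1 was 22.3, 20.7 and 18.2 CPM in WT M2 in DMEM and 48.02, 41.9 and 46.3 in CM, a rise of 1.09 (FDR = 8.34e-06). In KO cells in CM Bub1 was 4.38, 6.21 and 6.54 CPM in M0 and 8.92, 8.43 and 12.9 in M2 cells, and Bub1b 4.62, 3.46 and 4.78 and 6.82, 7.21 and 6.05. Both were higher in M2 cells, with adjusted p of 0.00775 and 0.0202. The Bub1 call ended without KO M0 CM 1 (0.0611) or KO M2 CM 3 (0.0847), and the Bub1b call without KO M2 CM 1 (0.0561), KO M0 CM 2 (0.13) or KO M2 CM 2 (0.0896). Bub1b in KO cells in DMEM was 26.9, 20.6 and 24.6 CPM in M0 and 21.2, 14.2 and 18.5 in M2 cells, lower by a log2 change of -0.43 (FDR = 0.0217), which was not called without KO M0 DMEM 1 (0.117), KO M2 DMEM 2 (0.189), KO M0 DMEM 3 (0.0585) or KO M2 DMEM 3 (0.0513). The 5 kinases were all lower in KO cells in CM, by -3.87 (Plk1) to -2.67 (Aurkb) in M0 and -2.39 (Plk1) to -1.74 (Aurka) in M2 cells.

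Survivin (Birc5) and borealin (Cdca8) belong to the chromosomal passenger complex. The Birc5 window (chr11:117848987-117849286, plus strand) has no match to any of the letters searched:
Birc5: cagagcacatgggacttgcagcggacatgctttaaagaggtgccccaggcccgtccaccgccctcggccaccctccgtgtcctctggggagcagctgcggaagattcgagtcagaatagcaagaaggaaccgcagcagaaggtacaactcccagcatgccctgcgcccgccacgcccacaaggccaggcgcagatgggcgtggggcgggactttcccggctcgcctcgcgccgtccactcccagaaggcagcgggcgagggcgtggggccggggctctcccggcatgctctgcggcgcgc
Birc5 in M0 cells was, in CPM, 202, 203 and 190.5 in WT in DMEM, 84.5, 88.5 and 93.8 in KO in DMEM, 266, 207 and 218 in WT in CM and 14.9, 13.5 and 16.5 in KO in CM, and KO lay below WT in both media. In M2 cells Birc5 was, in CPM, 64.99, 55.9 and 57.01 in WT in DMEM, 77.1, 72.8 and 64.96 in KO in DMEM, 96.2, 121 and 107 in WT in CM and 21.6, 20.9 and 16.4 in KO in CM. In DMEM the M2 genotypes lay close, with the lowest KO library just below the highest WT library, and in CM they were far apart. Birc5 differed between KO and WT by a log2 change of -1.16 (SE 0.11, FDR = 1.15e-08) in M0 in DMEM, -3.94 (SE 0.13, FDR = 2.18e-18) in M0 in CM and -2.38 (SE 0.12, FDR = 1.83e-14) in M2 in CM, while in M2 in DMEM it was 0.28 (FDR = 0.0909). For Birc5 the genotype by medium term was -2.78 (SE 0.16, FDR = 1.27e-12) in M0 and -2.66 (SE 0.16, FDR = 3.32e-12) in M2 cells. In KO cells, the change from M0 to M2 was -0.32 in DMEM, not called without KO M0 DMEM 2 (0.073), KO M2 DMEM 2 (0.0668), KO M0 DMEM 3 (0.111) or KO M2 DMEM 3 (0.179). In WT cells in CM it was -1.17 (SE 0.11, FDR = 3.83e-09), the largest of the G2/M list.

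NUSAP1 binds spindle microtubules, Eg5 (Kif11) pushes spindle poles apart, and CENP-E and CENP-F act at kinetochores. The Nusap1 window (chr2:119618048-119618347, plus strand) has no match to any of the letters searched:
Nusap1: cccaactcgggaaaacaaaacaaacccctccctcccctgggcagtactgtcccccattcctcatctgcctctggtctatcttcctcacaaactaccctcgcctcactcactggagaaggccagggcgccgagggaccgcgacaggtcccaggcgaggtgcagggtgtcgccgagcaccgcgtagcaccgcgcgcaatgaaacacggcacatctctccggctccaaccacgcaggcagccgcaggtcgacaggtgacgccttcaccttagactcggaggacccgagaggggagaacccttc
Nusap1 in M0 cells was, in CPM, 171, 104 and 104 in WT in DMEM, 69.9, 43.2 and 45.3 in KO in DMEM, 166, 105 and 121 in WT in CM and 10.1, 7.17 and 5.79 in KO in CM. Replicate 1 was the highest of its group in each of these 4 groups, and KO lay below WT in both media. In M2 cells Nusap1 was, in CPM, 34.4, 31.2 and 29.8 in WT in DMEM, 36.1, 35.9 and 41.2 in KO in DMEM, 96.04, 52.5 and 52.3 in WT in CM and 11.8, 8.10 and 11.1 in KO in CM. The KO M2 libraries in DMEM lay above the WT ones and in CM far below them. Nusap1 differed between KO and WT by a log2 change of -1.25 (SE 0.26, FDR = 0.00208) in M0 in DMEM, -4.08 (SE 0.31, FDR = 5.16e-09) in M0 in CM and -2.62 (SE 0.30, FDR = 1.46e-06) in M2 in CM. In M2 in DMEM it was 0.26 and was not called (FDR = 0.598).

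Cenpf was 218, 149 and 138 CPM in WT M0 in DMEM and 45.2, 39.8 and 41.7 in WT M2 in DMEM, a log2 change of -2.002 (FDR = 1.4e-05), the largest of the G2/M list. In KO cells in M0 in DMEM it was 119, 80.02 and 82.5 CPM, and the KO against WT call (-0.84, FDR = 0.0379) ended without WT M0 DMEM 1 (0.184), WT M0 DMEM 2 (0.0519), KO M0 DMEM 2 (0.141) or KO M0 DMEM 3 (0.137). In KO M2 cells Cenpf was 60.4, 62.2 and 60.8 CPM in DMEM and 13.5, 12.8 and 12.5 in CM, a change of -2.23 (FDR = 1.16e-05), and its genotype by medium term in M2 cells was -3.04 (FDR = 2.91e-05). Kif11 was 27.9, 27.7 and 24.2 CPM in KO M0 and 24.5, 10.1 and 19.7 in KO M2 cells in DMEM, which overlap. The adjusted p of that fall was 0.0243, and the call ended without KO M0 DMEM 1 (0.0723), KO M0 DMEM 2 (0.0735) or KO M2 DMEM 2 (0.195).

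Ubiquitin-mediated exit from mitosis runs through the anaphase-promoting complex with CDC20 and the E2 enzyme UBE2C. Ube2c was 200.5, 249.7 and 225 CPM in WT M0 in CM and 14.8, 21.02 and 20.1 in KO M0 in CM, without overlap. In M2 cells Ube2c was, in CPM, 63.5, 64.8 and 58.7 in WT in DMEM, 84.2, 84.6 and 79.6 in KO in DMEM, 132, 142 and 145 in WT in CM and 25.3, 20.1 and 21.8 in KO in CM. The KO M2 libraries lay above the WT libraries in DMEM and below them in CM. The rise in DMEM was 0.41 (FDR = 0.0112), and the call ended without KO M2 DMEM 1 (0.0564), KO M2 DMEM 2 (0.0639) or WT M2 DMEM 4 (0.0868). In M2 in CM the change was -2.56 (SE 0.12, FDR = 5.24e-15), and the genotype by medium term was -2.98 (FDR = 6.87e-13). Cdc20 was 7.97, 8.75 and 9.93 CPM in KO M2 in DMEM and 1.71, 1.997 and 1.64 in KO M2 in CM. It had the largest fall of the G2/M list there, -2.29 (SE 0.21, FDR = 1.1e-09), and with all 27 libraries the change was -0.85 (FDR = 0.298). The batch 1 libraries of KO M2 in CM held only 13, 18 and 13 counts of Cdc20, so the size of its fall is uncertain.

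Ki-67 coats mitotic chromosomes and topoisomerase II alpha untangles sister DNA. The Mki67 window (chr7:135716330-135716629, minus strand) holds 2 CHR matches and 3 CCAAT boxes, and the Top2a window (chr11:99024140-99024439, minus strand) 2 CHR matches and 6 CCAAT boxes:
Mki67: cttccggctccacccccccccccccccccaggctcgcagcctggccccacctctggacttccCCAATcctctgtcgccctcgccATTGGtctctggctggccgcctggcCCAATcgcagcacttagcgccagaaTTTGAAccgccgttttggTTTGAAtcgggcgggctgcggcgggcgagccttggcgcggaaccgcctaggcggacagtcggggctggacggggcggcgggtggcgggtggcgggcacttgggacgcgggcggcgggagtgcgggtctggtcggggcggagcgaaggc
Top2a: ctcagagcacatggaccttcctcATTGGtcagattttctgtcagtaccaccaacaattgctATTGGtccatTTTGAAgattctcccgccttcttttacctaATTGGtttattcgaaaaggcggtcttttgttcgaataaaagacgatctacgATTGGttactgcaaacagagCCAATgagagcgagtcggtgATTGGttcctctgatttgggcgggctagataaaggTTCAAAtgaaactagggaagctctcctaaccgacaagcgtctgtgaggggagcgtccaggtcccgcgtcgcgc
Mki67 in M0 cells was, in CPM, 208, 109.6 and 108 in WT in DMEM, 92.6, 61.9 and 53.7 in KO in DMEM, 236, 125 and 124 in WT in CM and 16.2, 7.17 and 8.05 in KO in CM. Replicate 1 had the highest value of each group, and WT and KO did not overlap in either medium. In M2 cells Mki67 was, in CPM, 50.4, 43.7 and 46.4 in WT in DMEM, 61.5, 57.1 and 66.8 in KO in DMEM, 151, 57.7 and 62.05 in WT in CM and 13.5, 15.9 and 14.6 in KO in CM, with WT M2 CM 1 far above the other 2 libraries of its group. The log2 change of Mki67 between KO and WT was -3.94 (SE 0.44, FDR = 1.53e-06) in M0 in CM and -2.54 (SE 0.42, FDR = 0.000141) in M2 in CM. In M0 in DMEM it was -1.02, about as large as for its list, and was not called (FDR = 0.077). It was called with the replicate number as a block, with DESeq2 and over the 25 libraries without the 2 batch 2 KO libraries. For Mki67 the genotype by medium term was -2.92 in M0 (FDR = 0.00116) and -2.94 in M2 cells (FDR = 0.00116).

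Top2a in M0 cells was, in CPM, 535, 322 and 329.5 in WT in DMEM, 213, 129 and 137 in KO in DMEM, 646, 396 and 395 in WT in CM and 51.9, 28.1 and 32.7 in KO in CM. As for Mki67, replicate 1 was highest in each group. In M2 cells Top2a was, in CPM, 103, 99.9 and 98.5 in WT in DMEM, 127, 125 and 142 in KO in DMEM, 331, 206 and 199 in WT in CM and 49.1, 38.95 and 54.4 in KO in CM. KO libraries lay above WT libraries in DMEM and below them in CM. Top2a differed between KO and WT by a log2 change of -1.31 (SE 0.28, FDR = 0.00246) in M0 in DMEM, -3.67 (SE 0.31, FDR = 2.64e-08) in M0 in CM and -2.29 (SE 0.29, FDR = 6.8e-06) in M2 in CM. In M2 in DMEM it was 0.39 and was not called (FDR = 0.381). In WT M2 cells it rose by 1.23 in CM (FDR = 0.00314). In WT cells in CM it was lower in M2 than in M0 by a log2 change of -1.04 (FDR = 0.00897), which was not called without WT M0 CM 1 (0.0674) or WT M2 CM 3 (0.0502).

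Foxm1, the factor of mitotic genes, was 39.5, 48.99 and 42.9 CPM in WT M0 in DMEM, 18.2, 19 and 26 in KO M0 in DMEM, 65.4, 57.4 and 58.96 in WT M0 in CM and 2.88, 5.25 and 5.79 in KO M0 in CM. KO lay below WT in both media, as for the G2/M members. The change between KO and WT in CM was -3.69 (SE 0.19, FDR = 1.31e-14) in M0 cells. The rise in CM in WT M0 cells, 0.47 (FDR = 0.0267), was not called without WT M0 DMEM 1 (0.113), WT M0 CM 1 (0.0851), WT M0 DMEM 3 (0.0795) or WT M0 CM 3 (0.0512).

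**Figure D5:**
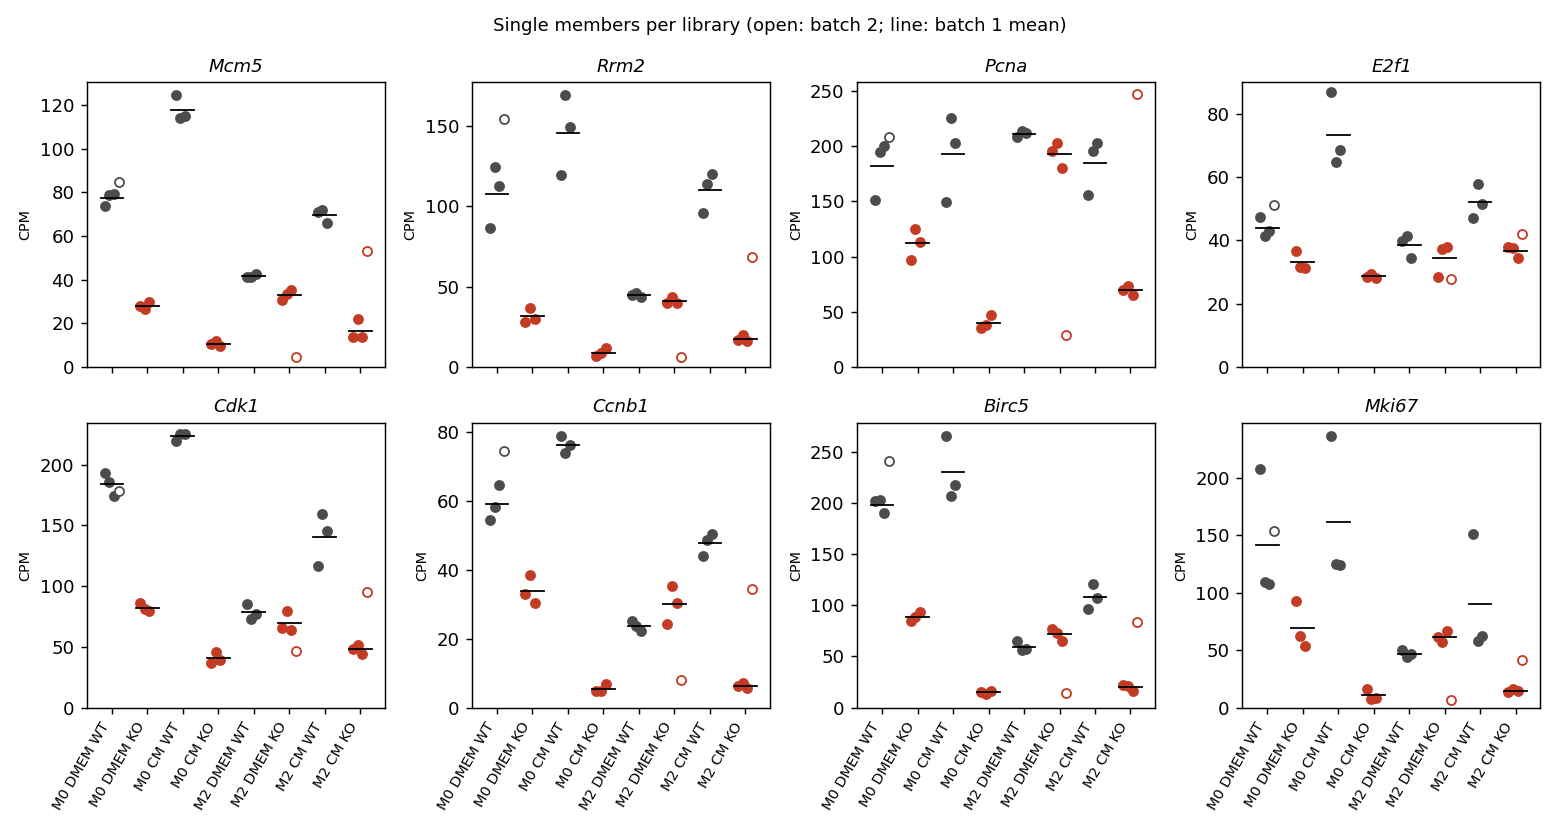
CPM of 8 members (Mcm5, Rrm2, Pcna, E2f1, Cdk1, Ccnb1, Birc5 and Mki67) in each of the 27 libraries, by group, on axes that start at 0. Points are libraries (red KO, grey WT, open batch 2), and lines are batch 1 means. The KO M0 in CM libraries lie lowest of the M0 libraries in each panel.

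For comparison with the lists that follow, 8.64% of all genes were higher and 7.97% lower in KO M0 cells in DMEM, 19.1% and 19.2% in KO M0 in CM, 8.56% and 7.87% in KO M2 in DMEM, and 17.2% and 16.8% in KO M2 in CM. Of 44 other replication genes, 32 were lower in KO M0 cells in DMEM, 39 in KO M0 in CM and 36 in KO M2 in CM, and in M2 in DMEM 1 was higher and 4 lower. Their medians were -0.89, -1.72, -1.14 and -0.07. Of 49 other mitosis genes, 41, 48 and 47 were lower in the same 3 comparisons, 1 was higher in KO M2 in CM, and in M2 in DMEM 7 were higher and 1 lower. Their medians were -0.97, -3.08, -2.04 and 0.23, and the largest changes in M0 in CM were in Kif4 (-4.49), Cenpm (-4.28) and Spc24 (-4.26). Most genes of the same processes outside the 49 were thus lower in these 3 comparisons. Over all 27 libraries 24, 38 and 30 other replication genes and 18, 47 and 42 other mitosis genes were lower in them. In M2 in DMEM that fit called 1 mitosis gene higher, with a median of -0.03, and 1 replication gene higher and 3 lower, with a median of -0.25. In WT M2 cells in CM, 30 other replication genes and 37 other mitosis genes were higher, and 1 of the latter was lower, against 11.2% higher and 13.3% lower of all genes, and with all 27 libraries 17 and 11 were higher.

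Of 17 E2F, pocket protein and MuvB genes, 10 were lower and 1 higher in KO M0 in CM, and the largest changes were in E2f7 (-4.68), Mybl2 (-3.58) and E2f8 (-3.13). E2f7 and E2f8 encode repressors that E2F itself induces, and Mybl2 encodes B-MYB. In KO M2 in CM 9 were lower and 1 higher, with E2f7 (-2.68), E2f8 (-1.97) and Mybl2 (-1.47) again the largest. In KO M0 in DMEM 8 were lower and none higher, with E2f7 (-1.86), Mybl2 (-1.54) and E2f8 (-1.17) the largest. In M2 in DMEM only Mybl2 was called (-0.99, FDR = 0.0181). The 27 libraries gave 10 lower and 1 higher in KO M0 in CM, 8 and 0 in KO M2 in CM, 6 and 0 in KO M0 in DMEM, and 1 and 0 in M2 in DMEM.

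Of 7 CDK inhibitor genes, 2 were higher and 3 lower in KO M0 in CM, with the largest changes in Cdkn2b (1.92), Cdkn2c (-1.92) and Cdkn1b (1.03). Cdkn1b, which encodes p27, was 109.5, 90.99 and 92.5 CPM in WT and 187, 195 and 214 in KO M0 cells in CM, and 68.2, 80.4 and 79.4 in WT and 139, 153 and 139 in KO M2 cells in CM. KO lay above WT in both, by 1.03 (SE 0.10, FDR = 4.08e-09) and 1.00 (SE 0.10, FDR = 1.06e-08). In M0 in DMEM 3 inhibitors were higher and 2 lower, in M2 in DMEM 3 and 1, and in M2 in CM 2 and 1. The 27 libraries gave 0 higher and 1 lower in M0 in DMEM, 2 and 2 in M0 in CM, 2 and 0 in M2 in DMEM, and 1 and 1 in M2 in CM. The inhibitors had no common direction.

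Of 6 G1 cyclin and kinase genes, 3 were lower in KO M0 in DMEM, 3 in KO M0 in CM, 2 in KO M2 in DMEM and 3 in KO M2 in CM, and 1, Ccnd2, was higher in CM in both polarizations, a call that ended with all 27 libraries (adjusted p of 0.427 in M0 and 0.378 in M2 cells). Ccnd2 encodes cyclin D2, which acts ahead of E2F. Ccnd2 in M0 cells was, in CPM, 134, 118 and 120.4 in WT in DMEM, 49.6, 44.5 and 50.6 in KO in DMEM, 199, 179.5 and 178 in WT in CM and 343, 305 and 311 in KO in CM. In DMEM KO lay below WT, and in CM KO lay above WT, without overlap. In M2 cells Ccnd2 was, in CPM, 64.4, 63.9 and 48.9 in WT in DMEM, 26.01, 30.8 and 27.4 in KO in DMEM, 88.8, 75.9 and 81.9 in WT in CM and 189, 189 and 189 in KO in CM. Ccnd2 differed between KO and WT by a log2 change of -1.36 in M0 in DMEM, 0.79 in M0 in CM, -1.06 in M2 in DMEM and 1.28 in M2 in CM. For Ccnd2 the genotype by medium term was 2.15 (SE 0.14, FDR = 4.68e-12) in M0 and 2.35 (SE 0.14, FDR = 2.6e-12) in M2 cells, opposite in sign to that of the called members, and neither was called with all 27 libraries. Ccnd2 was 283 CPM in the library labelled M2_DMEM_KO_4 and 41.8 CPM in M2_CM_KO_4, each away from its group.

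Of 7 genes of growth factor input and MYC, 2 were higher in KO M0 in CM and none was lower. In KO M2 in CM 3 were higher and 3 lower, with the largest changes in Myc (-1.96), Csf2rb (-1.19) and Maf (0.80). In M0 in DMEM 3 were higher and 1 lower, and in M2 in DMEM 1 was higher and 3 lower. The 27 libraries gave 1 higher in M0 in CM, 1 higher and 1 lower in M2 in CM, 0 called in M0 in DMEM, and 1 higher and 2 lower in M2 in DMEM. Of 12 p53 target genes, 4 were higher and 1 lower in KO M0 in CM, and 3 were higher and 2 lower in KO M2 in CM. In M0 in DMEM 1 was higher and 1 lower, and in M2 in DMEM 1 and 2. Over all 27 libraries 2 were higher and 0 lower in either polarization in CM, and 1 and 1 in DMEM. These counts are of few genes, beside the shares of all genes given above. Over the comparisons together they went in both directions, though not within each comparison.

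The share of counts from mitochondrially encoded mRNA was 2.84, 3.42 and 3.25% in WT M0 in DMEM, 3.13, 3.31 and 3.60% in KO M0 in DMEM, 2.90, 2.97 and 2.91% in WT M0 in CM and 2.20, 2.44 and 2.30% in KO M0 in CM. In M2 cells it was 5.17, 4.69 and 4.68% in WT in DMEM, 5.99, 5.15 and 5.67% in KO in DMEM, 3.54, 4.54 and 4.35% in WT in CM and 3.23, 3.18 and 3.004% in KO in CM. It was lowest in the group with the lowest sums, and its part in the results was not tested. The library labelled M2_DMEM_KO_4 had 0.987%, below every other library.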

How the data were processed

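The authors trimmed the reads, aligned them with HISAT2 and assigned them to genes with featureCounts, and the values used here are the raw counts they deposited. The labels give the genome build as mm39, the methods of the paper mm10. Of the table's 32 columns, 5 belong to no described library and were not used. The members and gene lists were chosen with earlier results of these data known.

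Differential expression was tested with edgeR 4.0.16 (limma 3.58.1, R 4.3.3) on the 24 batch 1 libraries in 1 fit of 8 groups: TMM factors, the filter on low counts (minimum count 10), a robust quasi-likelihood fit and test, and Benjamini-Hochberg adjustment over all genes, called at an adjusted p under 0.05. CPM use TMM factors over all 27 libraries. Fewer than 3 counts in a library were read as below detection, and floors and intervals cover counting error only. The code was tested on simulated data, where fewer planted changes were recovered than first required. That requirement was replaced after this was seen, and the changes missed were mostly in genes of low level.

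The alternatives tried were scaling by median-of-ratios factors, the Wald test of DESeq2 1.42.0, testing unfiltered genes, all 27 libraries without and with batch as a covariate, the replicate number as a block, each library left out in turn, sums without the most abundant member, and shorter E2F letters. Leaving out the 2 batch 2 KO libraries was chosen after seeing the data. Values per library are given for Exo1, Mcm5, Pcna, Rrm2, E2f1, Mki67, Top2a, Cdk1, Ccnb1 and Birc5 and, per comparison, for the 3 members of each list with the largest called change and at least 5 CPM in the higher group. Of the other gene lists, counts are given and, in some of the comparisons described, the 3 genes with the largest called change. Cdt1, Ccnd2 and Cdkn1b by library, and Mcm5, Top2a and Cdk1 as printed windows, were chosen after their values were seen.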

Additional observations from a re-analysis of the deposited data

Results flagged for a closer look

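Where a group holds 4 libraries, the library at either end was judged by its gap to the nearest other, as a share of the range. Of 36 such sets of values (12 measures in 3 groups), 17 had a library standing apart, where chance gives about 1 in 20, or 1.8. The sets are not independent, because the sums contain the single members and the same batch 2 libraries stand apart in many of them. In WT M0 in DMEM the batch 2 library stood above the others, with a S-phase sum of 2311 CPM against 2081 to 2114 and Exo1 of 12.8 CPM against 9.37 to 9.82.

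The library labelled M2_DMEM_KO_4 stood below the other 3 of its group in the S-phase sum (317 CPM against 1083 to 1120), the G2/M sum (244 against 997.9 to 1012), Mcm5 (4.56 against 30.5 to 35.5), Pcna (29.4 against 180.3 to 203), Rrm2 (6.08 against 39.7 to 43.8), Mki67 (6.46 against 57.1 to 66.8) and Top2a (30.5 against 125 to 142). The library labelled M2_CM_KO_4 stood above the other 3 of its group in the S-phase sum (1365 CPM against 640.2 to 644), the G2/M sum (927 against 317 to 339.6), Pcna (247 against 65.5 to 73.2), Rrm2 (68.7 against 15.9 to 19.8), Mki67 (41.05 against 13.5 to 15.9), Cdk1 (94.7 against 44.03 to 51.7), Ccnb1 (34.5 against 5.80 to 7.10) and Birc5 (83.5 against 16.4 to 21.6). Both are batch 2 libraries whose profiles were nearest to another group.

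The response to CM differed between WT and KO cells by the genotype by medium term of edgeR's quasi-likelihood test. In M0 cells 47 members were called, Exo1 included, and the log2 terms of the members followed by library were -3.54 for Exo1 (a description, without a test), -1.99 for Mcm5, -1.56 for Pcna, -2.23 for Rrm2, -0.95 for E2f1, -2.92 for Mki67, -2.36 for Top2a, -1.28 for Cdk1, -3.01 for Ccnb1 and -2.78 for Birc5. In M2 cells 46 members were called, and the terms were -1.17 for Exo1, -1.66 for Mcm5, -1.20 for Pcna, -2.45 for Rrm2, -2.94 for Mki67, -2.69 for Top2a, -1.31 for Cdk1, -3.16 for Ccnb1 and -2.66 for Birc5. The Exo1 term in M2 cells, with an adjusted p of 0.0164, was not called without KO M2 CM 2 (0.0584) or KO M2 CM 3 (0.0514).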

How the results depend on the processing

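Another scaling (median-of-ratios factors), another tool (DESeq2), testing without the filter and leaving out the 2 batch 2 KO libraries (chosen after seeing the data) kept the total of called members over both lists within 1.5 times in every comparison. Some counts per list moved more. For M2 against M0 in KO cells in CM, 3 G2/M members were called in place of 5 with median-of-ratios factors, with DESeq2 and without those 2 libraries. For KO against WT in M2 in DMEM, 1 G2/M member was higher in place of 2 with median-of-ratios factors and without the filter, and DESeq2 gave 4 S-phase members lower in place of 2. Without the filter Ccnb2 was not called in WT M0 in CM. The replicate block gave 3 members, all higher, in place of 5 for KO against WT in M2 in DMEM, 6 G2/M members higher in place of 3 for WT M0 in CM, and 8 G2/M members lower in place of 5 for M2 against M0 in KO cells in DMEM. Leaving out 1 library at a time gave 1 to 5 called members in that comparison and 6 to 10 for M2 against M0 in KO cells in DMEM, and kept the other totals within 1.5 times.

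All 27 libraries changed more, and over all genes too. Without the covariate this fit called 180 (genotype by medium in M2) to 3692 (M2 against M0 in WT in DMEM) of 13723 genes. In every comparison these were fewer than in batch 1. The counts, first without and then with batch as a covariate, were 29 and 22 for KO against WT in M0 in DMEM, 0 and 1 in M2 in DMEM, 3 and 4 for CM against DMEM in WT M0, 8 and 8 in WT M2, and 1 and 0 in KO M2. They were 1 and 1 for M2 against M0 in KO cells in DMEM, 3 and 4 in WT cells in CM, 5 and 3 in KO cells in CM, and 0 and 2 for genotype by medium in M2. For genotype by medium in M0 they were 34 and 31, with 16 and 13 S-phase members in place of 26. The S-phase count was 15 in place of 25 in both fits for CM against DMEM in KO M0, and 15 in place of 24 with the covariate for M2 against M0 in WT cells in DMEM. KO against WT in CM kept its counts within 1.5 times in M0 and M2 cells.

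Changes called in either fit that reversed in sign with all 27 libraries were, for CM against DMEM in KO M2, Exo1 (0.138), Mcm2 (0.181), Mcm3 (0.015), Mcm4 (0.188), Mcm5 (0.014), Prim1 (0.014) and Uhrf1 (0.003), and for M2 against M0 in KO cells in DMEM, Mcm3 (-0.070). With batch as a covariate they were Exo1 (0.081), Mcm2 (0.148), Mcm3 (0.047), Mcm4 (0.189) and Prim1 (0.021) for CM against DMEM in KO M2, Mcm3 (-0.061) for M2 against M0 in KO cells in DMEM, and Plk1 (-0.025) for KO against WT in M2 in DMEM. The 2 libraries that went against their labels enter these fits, and counts without them were near those of batch 1.

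Without Pcna the S-phase sums were 1911, 825.7, 2621, 407, 961, 909, 1737 and 573 CPM for WT M0 DMEM, KO M0 DMEM, WT M0 CM, KO M0 CM, WT M2 DMEM, KO M2 DMEM, WT M2 CM and KO M2 CM. Without Top2a the G2/M sums in that order were 2088, 1035, 2275, 225, 723, 874, 1326 and 284 CPM. Fewer genes were summed, and the order of the groups was kept. With median-of-ratios factors the S-phase sum was 2846 in WT M0 CM and 1881 in WT M2 CM. The shorter E2F letters TTCCCGC and TTGGCGC were in 56.5% of S-phase genes, 17.6% of G2/M genes and 7.79% of all genes.

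Depth limits Exo1, Gins2, Cdc20 and Chek1 in KO cells in CM, where libraries held few counts, and Kif20a throughout. With 3 libraries per group, in 1 batch, the genotype and whatever else differed between the WT and KO mice cannot be told apart.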

Other observations

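Libraries within a group varied beyond counting error. Over 33 pairs of libraries within groups, the chi-square per degree of freedom across all genes whose 2 counts added up to 20 or more was 2.11 to 37.4 without the libraries labelled M2_DMEM_KO_4 and M2_CM_KO_4 and reached 178 in pairs with them.

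In the 4 M0 groups and in WT M2 in CM, replicate 1 stood apart, with 16.04 to 37.4 against replicates 2 and 3 of batch 1, which gave 2.11 to 3.42 with each other. The log2 ratio of replicate 1 to the mean of those 2 was 0.67 to 1.32 for Mki67 and 0.68 to 0.76 for Top2a over these 5 groups. In WT M0 in CM Mki67 was 236, 125 and 124 CPM and Top2a 646, 396 and 395 CPM, high in replicate 1, whereas Aurkb was 26.2, 60.9 and 57.5 CPM and Fen1 89.4, 168 and 158 CPM, low in replicate 1. KO M2 DMEM 2 also stood apart, less strongly. Its chi-square per degree of freedom was 10.8 against KO M2 DMEM 1 and 13.1 against KO M2 DMEM 3. Those libraries gave 4.26 with each other.

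Matches of the motif letters lay at different distances from the start. The 14 E2F matches of S-phase members lay between -185 and 38 bases with a median of -108, the 16 CHR matches of G2/M members between -179 and 40 with a median of -18.5, and the 39 CCAAT boxes of G2/M members between -228 and 18 with a median of -78.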
